A study of Mus musculus with 2 samples.

Results

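The ER chaperone and unfolded protein response genes described here are a list of 36 mouse genes, fixed by symbol and function with earlier results of these arrays known. They comprise the chaperones, disulfide isomerases, degradation factors and translocon subunits of the endoplasmic reticulum (ER) and the sensors that regulate them. A member was found through the probe sets, the groups of oligonucleotides on the array that read 1 transcript, whose single annotated symbol is its own. A member with several probe sets was represented by the brightest of them, judged by the mean log2 signal of the 2 arrays, and signals under 100 were taken as low. Of the 36 members, 35 were measured among 18193 genes, and 30 reached a signal of 500 on at least 1 array, a minimum that 5014 of the genes reached. Fkbp10 was not analysed here.

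Mouse embryo fibroblasts (MEFs) are primary cells grown from minced embryos, here from day 12.5 and at passage 2 in medium with fetal bovine serum. One group was wild type and the other Ebp1 knock out, in which a retroviral gene trap sits in an intron of Pa2g4, the gene of the ErbB3 binding protein Ebp1, and leaves a fusion of its first residues with a neomycin marker. The strain was kept on a mixed genetic background, and how many embryos were pooled for a culture is not stated in the sources used here. Each genotype was measured on 1 Affymetrix array, so no difference reported has a replicate check, an error or a test.

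Proteins bound for the membrane, the surface or the outside of the cell enter the ER through the Sec61 channel, fold there with the help of chaperones and disulfide isomerases, and are returned to the cytosol for degradation when they fail to fold. When unfolded proteins accumulate, the sensors IRE1, ATF6 and PERK start the unfolded protein response, in which XBP1, cleaved ATF6 and ATF4 raise the transcription of chaperone and degradation genes and PERK slows translation. Fibroblasts secrete large amounts of collagen and depend on this machinery.

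The best known control sequence of these genes is the ER stress response element (ERSE), in which CCAAT and CCACG are separated by 9 bases of any kind and which ATF6 and XBP1 read together with NF-Y. It was described on chaperone promoters that are members here, so its share among the members is not independent of their choice. Promoters from 250 bases before to 50 bases after the transcription start were taken from RefSeq (GRCm38.p6) and were at hand for 30 of the 36 members, the others being Derl1, Sec61a1, Manf, Fkbp10, Atf6 and Hyou1. An ERSE on either strand stood in 9 of these 30 promoters (30%), against 37 of 27025 promoters of all genes (0.137%). The matches are given here because, of the elements searched, the ERSE stood in the largest number of member promoters. Each is written in the direction of the element, with its fixed letters in capitals.
Hspa5, chr2:34772025-34772043, 65 to 47 bases upstream, same orientation as the gene: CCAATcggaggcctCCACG
Hsp90b1, chr10:86705638-86705656, 212 to 194 bases upstream, same orientation as the gene: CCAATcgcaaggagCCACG
Hsp90b1, chr10:86705533-86705551, 107 to 89 bases upstream, opposite orientation to the gene: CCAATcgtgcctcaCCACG
Calr, chr8:84847075-84847093, 162 to 144 bases upstream, opposite orientation to the gene: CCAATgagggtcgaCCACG
Canx, chr11:50325800-50325818, 145 to 127 bases upstream, same orientation as the gene: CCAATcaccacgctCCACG
Pdia6, chr12:17266491-17266509, 98 to 80 bases upstream, same orientation as the gene: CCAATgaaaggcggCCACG
Dnajc3, chr14:118937827-118937845, 105 to 87 bases upstream, same orientation as the gene: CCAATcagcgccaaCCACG
Creld2, chr15:88819520-88819538, 126 to 108 bases upstream, opposite orientation to the gene: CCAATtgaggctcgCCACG
Syvn1, chr19:6046532-6046550, 44 to 26 bases upstream, same orientation as the gene: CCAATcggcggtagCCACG
Derl3, chr10:75893242-75893260, 156 to 138 bases upstream, opposite orientation to the gene: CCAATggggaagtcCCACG
The 9 spacer bases differ between all of these matches.

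A shorter form, ERSE-II, has ATTGG and CCACG separated by 1 base and stood in the promoters of 2 of 30 members, against 12 of 27025 genes (0.0444%). These matches, again with the fixed letters in capitals, are those of a degradation factor and of a co-chaperone.
Herpud1, chr8:94386377-94386387, 52 to 42 bases upstream: ATTGGgCCACG
Dnajb11, chr16:22857852-22857862, from 8 bases after the start: ATTGGcCCACG
The XBP1 element TGACGTGG stood in 0 of 30 member promoters and in 0.714% of all promoters, which says only that these letters are not in these windows. This element, the ERSE and the ERSE-II all contain CCACG on one of their strands. The ATF4 element TGATGNAA, where N is any base, stood in 1 member promoter, that of Herpud1, 112 to 105 bases upstream on the opposite strand, and in 4.51% of all promoters. When 1 of the 10 fixed letters of the ERSE was allowed to differ, a search added after the exact matches were known, 15 of 30 member promoters (50%) and 1.72% of all promoters held a match.

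**Figure D1:**
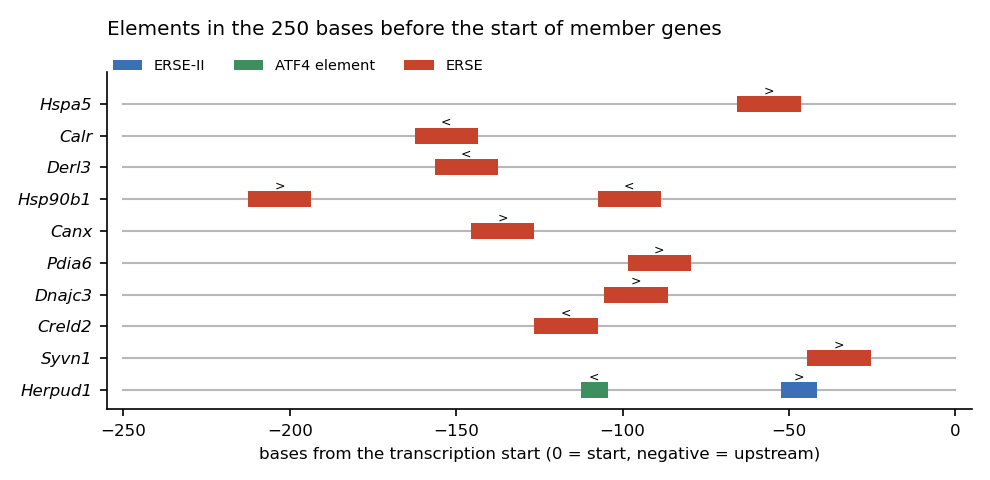
Positions of the elements in the promoters of 10 members, in bases from the transcription start, with negative values upstream. Red boxes are ERSE, the blue box is ERSE-II, the green box is the ATF4 element, and the arrowheads give the orientation relative to the gene. The ERSE matches lie between 212 and 26 bases upstream of the start, and Hsp90b1 holds a pair of them. The ERSE-II of Dnajb11 lies after the start and is not drawn.

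The 150 bases before the start are given for Hspa5, Hsp90b1 and Herpud1, with the ERSE or ERSE-II in capitals, since these genes code for the main ER HSP70, the ER HSP90 and a stress-induced degradation factor. In the Hsp90b1 sequence the element nearer to the start reads in reverse and appears as its reverse complement.
Hspa5, chr2:34771940-34772089, plus strand: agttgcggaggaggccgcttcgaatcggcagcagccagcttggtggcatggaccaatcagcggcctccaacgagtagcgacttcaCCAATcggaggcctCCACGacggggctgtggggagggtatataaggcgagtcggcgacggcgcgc
Hsp90b1, chr10:86705445-86705594, minus strand: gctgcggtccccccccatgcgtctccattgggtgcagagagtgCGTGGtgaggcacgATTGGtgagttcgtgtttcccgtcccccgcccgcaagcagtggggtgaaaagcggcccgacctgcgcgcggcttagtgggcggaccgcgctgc
Herpud1, chr8:94386279-94386428, plus strand: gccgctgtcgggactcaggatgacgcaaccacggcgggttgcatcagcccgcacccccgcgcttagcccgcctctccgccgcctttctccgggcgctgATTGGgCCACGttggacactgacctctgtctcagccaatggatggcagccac

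On these arrays the members had nearly the same signals in both genotypes. Of the 30 members that reached 500, 0 were over 2-fold higher in the knock out and 0 were over 2-fold lower, where 0.758% and 1.06% of the 5014 genes were. At a fold of 1.5 the member counts were again 0 higher and 0 lower, against 2.99% and 5.11% of all genes. This smaller fold depended on the scale, since with scaling to the spike-in controls 5 of 30 members were over 1.5-fold lower (Fkbp14, Sel1l, Derl1, Syvn1 and Sec61a1), against 30.7% of all genes. With 30 members, counts of 0 as deposited lie close to these shares and are not a result particular to the members. The median log2 ratio of knock out to wild type was -0.02 for the members and -0.05 for all genes that reached 500. The ratios of the members ran from -0.44 for Fkbp14 to 0.40 for Pdia3, and the largest fold was 1.36. The middle 50% of the members spanned 0.20 on the log2 scale, and the middle 50% of all genes spanned 0.37.

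The sign of such small ratios depended on how the arrays were put on 1 scale. Of the 30 members, 14 were above 0 and 16 below 0 (53.3%), where 57.8% of all genes were below 0. The 9 spike-in probe sets, which read control transcripts added for the hybridization, were 1.31-fold higher on the knock out array, and scaling to them lowers every log2 ratio by 0.39. On that scale 29 of the 30 members were below 0, all but Pdia3, which stood at percentile 93.4 of all genes. The median of all genes was -0.44 on that scale, so this count is not particular to the members. Centring each array on its median signal lowers every ratio by 0.11 and left 23 members below 0, quantile normalization left 20 and loess on signal 19. The medians of all genes were then -0.16, -0.04 and -0.04. The shares of all genes below 0 on these other scales are not given here. In all 5 scalings Pdia3 was the single member above 0 and 15 members were below 0. Since spike-in and median scaling lower every ratio, a ratio below 0 as deposited stays below 0 in both by construction. Being below 0 in all 5 scalings thus adds little to the deposited sign. Counts relative to the median of all genes do not move with the spike-in or the median scale, and by this count 18 of 30 members (60%) lay above it, against 50% of all genes by construction.

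**Figure D2:**
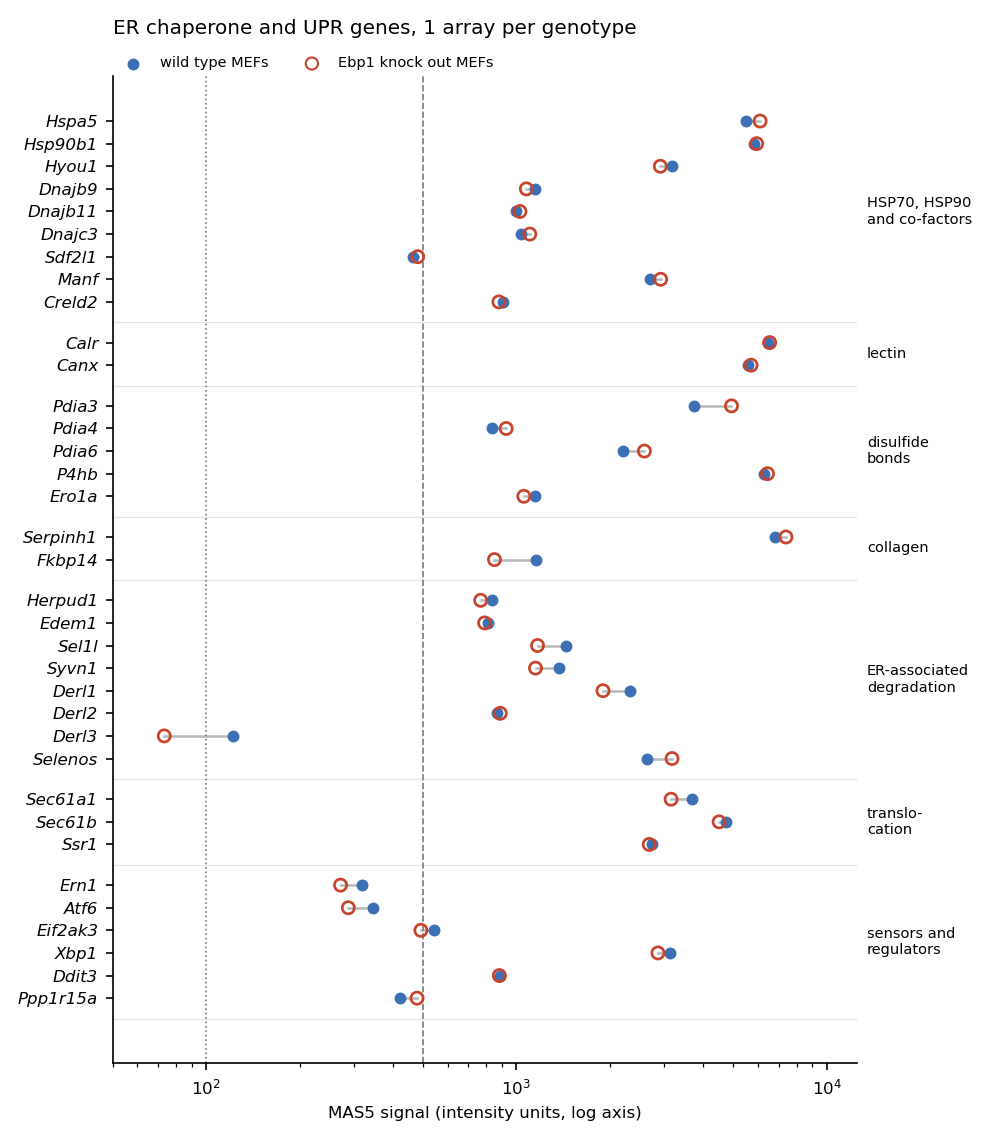
MAS5 signals of the 35 measured members on the wild type array (filled blue) and on the Ebp1 knock out array (open red), on a log axis in intensity units and ordered by role. The dotted line marks 100 and the dashed line 500. The pairs nearly coincide for most members, and the widest gaps above 500 are those of Pdia3 and Fkbp14.

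Over all genes the ratio moved with the brightness of the probe set, and this touches the members because many of their probe sets have high signals. Among the 285 genes with a mean signal of at least 4000 the middle 50% of ratios ran from -0.01 to 0.20, and among the 2336 genes between 500 and 1000 it ran from -0.26 to 0.11. Each member was therefore set against the genes of its own signal class. Of the 30 members, 20 lay inside the middle 50% of their class and 1, Pdia3, lay outside the middle 90%. Of the 8 members in the brightest class, 6 were inside the middle 50%, as were 6 of 8 between 500 and 1000, 4 of 6 between 1000 and 2000, and 4 of 8 between 2000 and 4000. The part that brightness plays in the values of single members was not tested.

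**Figure D3:**
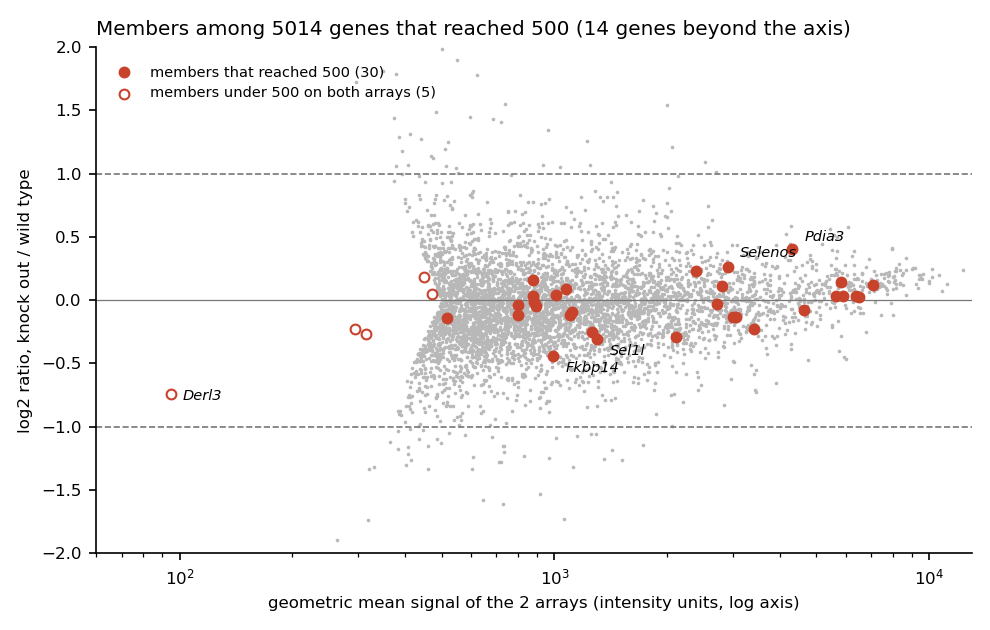
Log2 ratio of knock out to wild type against the geometric mean signal of the 2 arrays, on a log axis. Grey points are the genes that reached 500, filled red points the 30 members among them, open red points the 5 members under 500 on both arrays, and dashed lines mark 2-fold. Every filled red point lies between -0.44 and 0.40, and the grey cloud tilts upward at the bright end.

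The arrays as a whole set the frame for these values. The 2% trimmed mean signal was the same on both arrays. Pa2g4, the trapped gene, was 1835 in wild type MEFs and 1178 in the knock out (log2 ratio -0.64), with all 5 of its probe sets lower in the knock out. It was thus 1.56-fold lower but still above 500 on the array labelled knock out. The array signal therefore shows a lower value and not the loss of the transcript. By RT-PCR and Western blot the authors reported no Ebp1 mRNA or protein in knock out MEFs. Where the Pa2g4 probe sets lie relative to the insertion was not analysed here, and knock out stands throughout for the array with that label. All 8 fibroblast markers were above 500 on both arrays. Their log2 ratios were -0.67 for Pdgfrb, -0.58 for Thy1, -0.47 for Postn and -0.11 for Col3a1. Those of Col1a1, Fn1, Vim and Col1a2 were 0.10, 0.19, 0.25 and 0.26. Of 28 markers of other cell types, 17 were under 100 on both arrays and 0 reached 500 in wild type, while 1 of them, the epithelial adhesion gene Epcam, was 174 in wild type MEFs and 1350.5 in the knock out. The summed signal of the 6 epithelial markers was 452 and 1817, most of it Epcam on the knock out array, and without Epcam the other 5 summed to 278 and 467. Of these 5, Cdh1, Krt8, Krt18 and Cldn7 were under 100 on both arrays and Krt19 was 88.0 and 197. The part of these markers in the members' values was not tested. The 4 markers of professional secretory cells, which have an extensive ER, were all under 500, between 41.9 and 140 in wild type and between 27.5 and 138 in knock out. In such cultures fewer cells of a type and less RNA per cell cannot be told apart.

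The first role is that of the HSP70 and HSP90 chaperones of the ER and their co-factors, of which 8 of 9 reached 500. Their median log2 ratio was 0.04 (-0.07 with median centring and -0.35 with spike-in scaling), with 6 of 8 above the median of all genes. Hspa5 codes for BiP, the HSP70 that binds unfolded chains and holds the sensors inactive, and it was 5514 in wild type MEFs and 6104 in the knock out (log2 ratio 0.15). That is a difference of 1.11-fold in the direction of the knock out, which turns to -0.24 with spike-in scaling. Its other probe sets that reached 500 gave 0.20 and -0.03. Hsp90b1 (GRP94), the HSP90 of the ER, was 5817 and 5949.9 (0.03). Hyou1, a large HSP70 that exchanges the nucleotide of BiP, was 3183 and 2910.2 (-0.13).

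The J-domain proteins that bring substrates to BiP did not share a direction. Dnajb9 (ERdj4) was 1149 in wild type MEFs and 1077 in the knock out (-0.09). Dnajb11 (ERdj3) was 998 and 1027 (0.04), and Dnajc3 (P58IPK), which also inhibits PERK, was 1038 and 1105 (0.09). Both of these turn negative with spike-in and with median scaling. Manf, a secreted BiP co-factor, was 2697 and 2917 (0.11). Creld2, a stress-induced protein of the ER with EGF-like repeats, was 905 and 878 (-0.04). Sdf2l1, a BiP co-factor, stayed just under the minimum at 465 and 481 (0.05), whereas the sensor gene Eif2ak3 lay just inside it at 542 and 492.

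The lectin chaperones calreticulin (Calr) and calnexin (Canx) hold glycoproteins in the folding cycle. Calr was 6453 in wild type MEFs and 6551 in the knock out, and Canx was 5586 and 5708. Their log2 ratios were 0.02 and 0.03, and for these probe sets both become negative with every other scaling that was run. The other probe sets of Calr, of similar brightness, read 6046 and 6622 (0.13) and 5669 and 6220 (0.13). Canx had a second probe set above 500 that read 936 and 1526 (0.71) and another read 320 and 298 (-0.11), so that its value depended on the probe set.

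Among the genes of disulfide bond formation, 4 of 5 lay above the median of all genes and their median log2 ratio was 0.16 (-0.23 with spike-in scaling). Pdia3 (ERp57), the isomerase that works with calreticulin and calnexin, was 3735 in wild type MEFs and 4936 in the knock out. The log2 ratio was 0.40, at percentile 93.4 of all genes that reached 500, and 0.01 with spike-in scaling. A second, dimmer probe set of Pdia3 read 234 and 214 (-0.13). Pdia6 (P5), which binds BiP and regulates IRE1, was 2201 and 2586 (0.23). Pdia4 (ERp72) was 832 and 927 (0.16). P4hb, which codes for protein disulfide isomerase itself and is also the beta subunit of collagen prolyl 4-hydroxylase, was 6296 and 6449 (0.03). Ero1a, the oxidase that reoxidizes the isomerases, was 1149 and 1057 (-0.12). Of these 5 genes, Pdia4 and Pdia6 were above 0 in all scalings but that to the spike-ins, P4hb was above 0 only as deposited, and Ero1a was below 0 in all of them, although it turned to 0.11 with the mean over probe sets reaching 100.

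The collagen chaperones lay apart from each other. Serpinh1 (HSP47), which binds the triple helix of procollagen, was 6799 in wild type MEFs and 7395 in the knock out (0.12). It becomes negative with quantile and with spike-in scaling. The other probe set of Serpinh1, of similar brightness, read 7037 and 6655 (-0.08), and the mean over its probe sets was 0.02. Fkbp14 (FKBP22), a prolyl isomerase of the ER, was 1152 and 850 (-0.44), the lowest ratio of the members at 500 and at percentile 9.81 of all genes. It stayed below 0 in every scaling, of which those to the spike-ins and to the median lower every ratio. With spike-in scaling it was -0.83. A second probe set of Fkbp14 was under 100 on both arrays.

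Of the 8 genes of ER-associated degradation, 7 reached 500, with 2 above 0, 5 below 0 and a median log2 ratio of -0.12. Against the median of all genes the split was 3 above and 4 below. The lowest 3 of the 7, picked here by their values, were Sel1l, Derl1 and Syvn1. Sel1l, the scaffold of the membrane ligase complex that passes misfolded proteins to the cytosol, was 1443 in wild type MEFs and 1169.6 in the knock out (-0.30). Syvn1 (HRD1), the ubiquitin ligase of that complex, was 1370.4 and 1152 (-0.25). Derl1, a channel-like partner, was 2331 and 1902 (-0.29). These 3 genes stood between percentiles 18.9 and 24.3 of all genes. They were below 0 in all 5 scalings, of which those to the spike-ins and to the median lower every ratio.

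Each of these 3 genes had a probe set with the other direction. The second probe set of Syvn1 read 999 and 1153 (0.21), and stood for the gene when suffixed probe sets were left out. Dimmer probe sets of Sel1l read 286 and 420 (0.55), 190 and 274 (0.53), and 51.4 and 103 (1.01), the second value of each pair being the knock out. The other Sel1l probe set that reached 500 went with the brightest, at 655 and 566 (-0.21). A Derl1 probe set above 500 read 762 and 894 (0.23), while its others read 901 and 889 (-0.02) and 410 and 349 (-0.24). Other partners of the same complex were nearer to 0 or above it. Herpud1, which recruits the ligase, was 833 and 767 (-0.12), with a second probe set at 656 and 711 (0.12). Edem1, a mannosidase-like protein that picks out misfolded glycoproteins, was 811 and 789.7 (-0.04). Derl2, a relative and alternative of Derl1, was 867 and 887 (0.03, and below 0 with median and spike-in scaling). Selenos (VIMP), which anchors the p97 ATPase at the membrane, was 2645 and 3174 (0.26), at percentile 87.3 of all genes and at -0.13 with spike-in scaling. The other probe sets of Selenos read 2007 and 1868 (-0.10) and 383.5 and 555 (0.53). Derl3 was 122 and 73.2 and thus low on the knock out array, at least 1.22-fold lower there with the low signal set to 100.

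The probe sets that stand for the translocation genes were below 0 in all 5 scalings, but other probe sets of the same genes were not. Of these scalings, those to the spike-ins and to the median lower every ratio. Sec61a1, the pore of the translocon, was 3689.7 in wild type MEFs and 3152 in the knock out (-0.23). Sec61b, its small subunit, was 4739.8 and 4502 (-0.07), and Ssr1, a subunit of the translocon-associated TRAP complex, was 2734 and 2679.98 (-0.03). The other probe sets of Ssr1 were all higher in the knock out, 1 of them at 947 and 1201 (0.34) and the dimmer ones at 0.75 and 1.00. Of the other probe sets of Sec61a1, 3 were below 0, at -0.42, -0.35 and -0.08, and 2 above, at 523 and 896 (0.78) and at 145 and 302 (1.06). With the mean over probe sets reaching 100, Sec61a1 turned to 0.13 and Ssr1 to 0.52. Relative to the median of all genes the brightest probe set of Ssr1 lay above and those of the other genes below.

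Of the 6 sensors and effectors of the unfolded protein response, 3 reached 500, all below 0, with a median log2 ratio of -0.13. Ern1 (IRE1), the sensor that splices Xbp1 mRNA, was 318 in wild type MEFs and 271 in the knock out (-0.23). Atf6, the sensor cleaved in the Golgi, was 345 and 287 (-0.27). Eif2ak3 (PERK), the sensor kinase that phosphorylates eIF2 alpha, was 542 and 492 (-0.14). All 3 sensors were below 0 in all 5 scalings, of which those to the spike-ins and to the median lower every ratio. At these signals Ern1 and Atf6 were under the minimum. Downstream of them, Xbp1 was 3134 and 2860 (-0.13), and the array signal as deposited does not separate its spliced from its unspliced mRNA. Ddit3 (CHOP), the factor induced late in the PERK branch, was 888 and 881 (-0.01), and is above 0 with quantile normalization and with loess. Its second probe set read 139 and 238 (0.78). Ppp1r15a (GADD34), the phosphatase subunit that ends the PERK signal, was under the minimum at 421 and 478 (0.18, and -0.20 with spike-in scaling).

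Members that hold an ERSE were compared with those that do not. Of the 9 members with an ERSE, 8 reached 500, 6 of them above 0 and 2 below, with a median log2 ratio of 0.03 (-0.36 with spike-in scaling) and values from -0.25 for Syvn1 to 0.23 for Pdia6. The 16 members at 500 that had a promoter sequence without ERSE or ERSE-II had 6 above 0 and 10 below, with a median of -0.03 (-0.42 with spike-in scaling). The medians differed by less than the spread within either set, and there is no replicate check of the difference. Hspa5, Hsp90b1, Calr and Canx of the 8 and Pdia3, P4hb, Serpinh1 and Sec61b of the 16 had mean signals over 4000. All genes of that class had a median of 0.11, and the part of brightness in the difference was not tested. Of the other genes with an ERSE, 1 reached 500, Adcy3, an adenylyl cyclase named after its value was seen, and its log2 ratio was -0.60. Dnajb11 and Herpud1, with the ERSE-II, were at 0.04 and -0.12.

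Most members were read by more than 1 probe set, 88 in all, which gave another view of how firm the ratios are within these arrays. Of the 26 members with several probe sets, 17 had more than 1 that reached 500, and 9 of these 17 had probe sets on both sides of 0. The ratio differed by over 0.5 between the probe sets of 6 genes, and the median range was 0.24. Sec61a1 had the widest range, from -0.42 to 0.78. For Hsp90b1 the second probe set read 1330.2 in wild type MEFs and 2540.4 in the knock out (0.93), against 0.03 for the brighter. The probe sets of Xbp1 at 500 ran from -0.31 to 0.29, the latter standing for the gene when suffixed probe sets were left out. Differences between probe sets of 1 gene were thus as large as or larger than most ratios of the members.

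The further probe sets of a gene, dimmer than the 1 that stands for it, had the higher ratio more often than the lower, and this was so over the whole array too. Of the 42 further member probe sets that reached 100, 27 (64.3%) had a higher ratio than the brightest probe set of the gene, against 65.1% of 5129 over all genes. By their own ratio, 10 of the 42 (23.8%) were over 1.5-fold higher in the knock out than in wild type, against 16.5% over all genes. Over 1.5-fold lower in the knock out were 0 of 42, against 4.06%. Over 2-fold higher in the knock out were 2 of 42 (4.76%), against 6.69%.

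**Figure D4:**
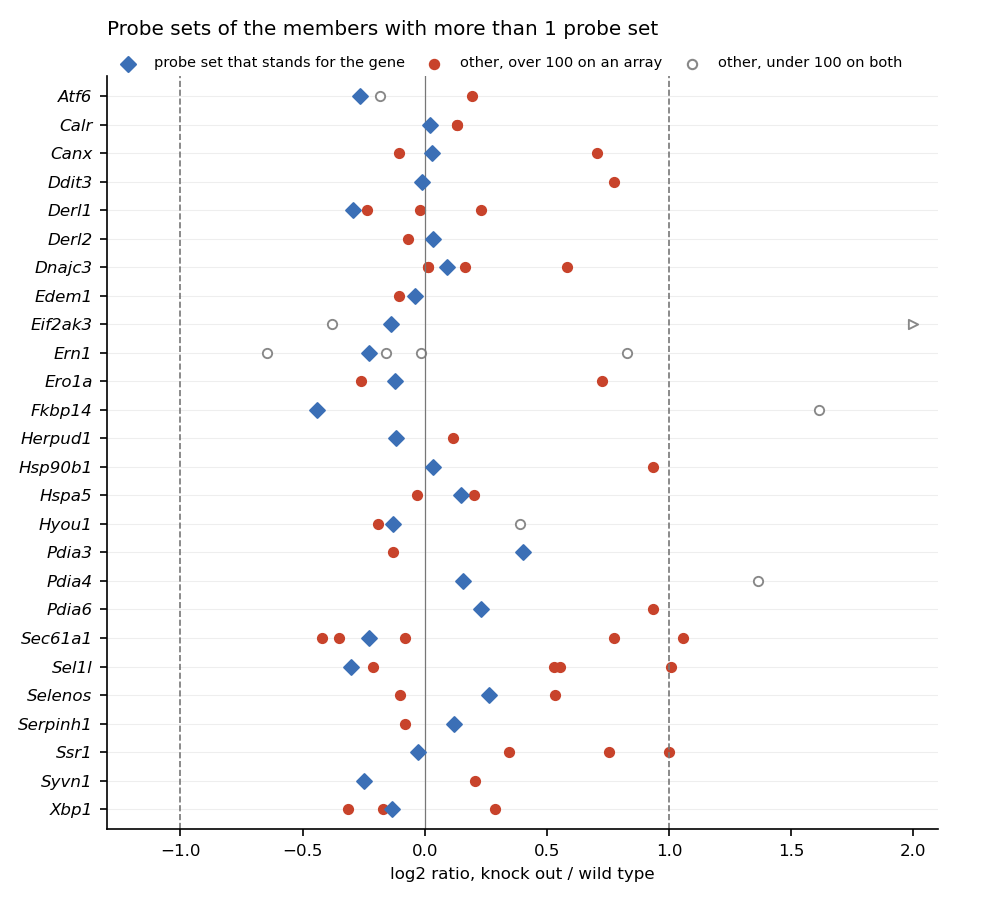
Log2 ratio of knock out to wild type for each probe set of the 26 members with more than 1. Diamonds are the probe sets that stand for the gene, filled red points other probe sets that reached 100, open points those under 100 on both arrays, the triangle marks 1 such value beyond the axis, and dashed lines mark 2-fold. The filled red points lie to the right of the diamond more often than to its left, as in 27 of 42.

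Other genes of the same pathways were counted from 7 wider lists and 2 comparison lists written for this work with earlier results of these arrays known. Of their 156 genes 5 were not analysed here. In any list 0 of the genes that reached 500 were over 2-fold apart. Of all genes, 0.758% were over 2-fold higher and 1.06% over 2-fold lower. As for the members, spike-in scaling lowers each ratio by 0.39 and median centring by 0.11, so that smaller positive values become negative. The 11 other disulfide isomerases and oxidoreductases had a median log2 ratio of -0.10, with 4 above the median of all genes. Txndc5 was 3551 in wild type MEFs and 3133 in the knock out (-0.18), and Prdx4, the peroxiredoxin of the ER, was 2325 and 2773 (0.25). The lowest of them was Tmx2 at -0.48, named after its value was seen.

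Collagen modification is the work of hydroxylases, glycosyltransferases and prolyl isomerases of the ER. Of its 16 genes at 500, 14 were below 0 (57.8% of all genes were) and 12 below the median of all genes. Their median was -0.22 (-0.60 with spike-in scaling). The prolyl isomerases Fkbp9 and Ppib were 5933 and 5118 (-0.21), and 5163 and 4574 (-0.17). P4ha3, an alpha subunit of collagen prolyl 4-hydroxylase named after its value was seen, was 546 and 306 (-0.84). It was the 1 gene of the list over 1.5-fold lower, where 5.11% of all genes were. The comparison list of collagen chains is a written selection, and its 15 chains at 500 had a median of -0.39. Of these, 11 were below 0 (57.8% of all genes were) and 4 over 1.5-fold lower (5.11% of all genes were). Among the 4 was Col6a2 at 3089 and 1889 (-0.71), also named after its value was seen. The chains of the list named by rule were at the other end, with Col1a2 at 8374 and 9997 (0.26) and Col5a2 at 7521 and 8538 (0.18). Chains at 500 outside the list included Col8a2 at 956 and 379 (-1.34), over 2-fold lower, and Col2a1 at 514 and 781 (0.60). Col16a1, Col27a1 and Col4a5, also outside it, were at -0.66, -0.59 and -0.06.

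The remaining ER lists had medians close to that of all genes. The 15 other degradation genes had a median of -0.01 with 7 above 0 and 8 below, and Vcp, the p97 ATPase, was 4835 and 5026 (0.06) while Ubxn4 was 1274 and 1153 (-0.14). The 18 genes of the translocon, signal recognition and signal peptidase had a median of -0.01 with 9 on each side of 0. Of these, Ssr3 was 4795 and 4637 (-0.05) and Spcs1 was 3956 and 3999 (0.02). The 14 genes of N-glycosylation had a median of -0.05, with Stt3a, a catalytic subunit, at 4579 and 4184 (-0.13) and Rpn1 at 4316 and 3863 (-0.16).

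The stress branches were counted beyond the members as well. Of 12 other regulators of the unfolded protein response at 500, 2 were above 0 and 10 below 0, where 57.8% of all genes were below 0. Of the 12, 9 were below the median of all genes, and their own median was -0.10. Atf4, the factor of the PERK branch, was 2964 in wild type MEFs and 3300.1 in the knock out (0.15), and Tmbim6, an ER membrane protein, was 2546 and 2399 (-0.09). The 12 ATF4 and CHOP targets had a median of 0.01 with 6 on each side of 0, and -0.09 with median centring. Asns, the asparagine synthetase, was 3291 and 3272 (-0.01), and Phgdh, the first enzyme of serine synthesis, was 4174 and 4578 (0.13). Vldlr, named after its value was seen, was 811 and 512 (-0.66). It was the 1 gene of the list over 1.5-fold lower, where 5.11% of all genes were.

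Chaperones outside the ER were counted for comparison. Of 22 cytosolic and mitochondrial chaperones, 18 were above 0, where 2115 of 5014 genes were, and 19 were above the median of all genes. Their median was 0.09, which becomes -0.02 with median centring and -0.30 with spike-in scaling. Many of these genes have high signals, and all genes with a mean signal of at least 4000 had a median of 0.11. The part that brightness plays in this list was not tested. Hspa8, the constitutive cytosolic HSP70, was 7506 and 7940.2 (0.08), and Hsp90aa1 was 5227 and 6082 (0.22). The corresponding ER chaperones Hspa5 and Hsp90b1 were at 0.15 and 0.03. No test of the difference between these lists is possible with 1 array per genotype.

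**Figure D5:**
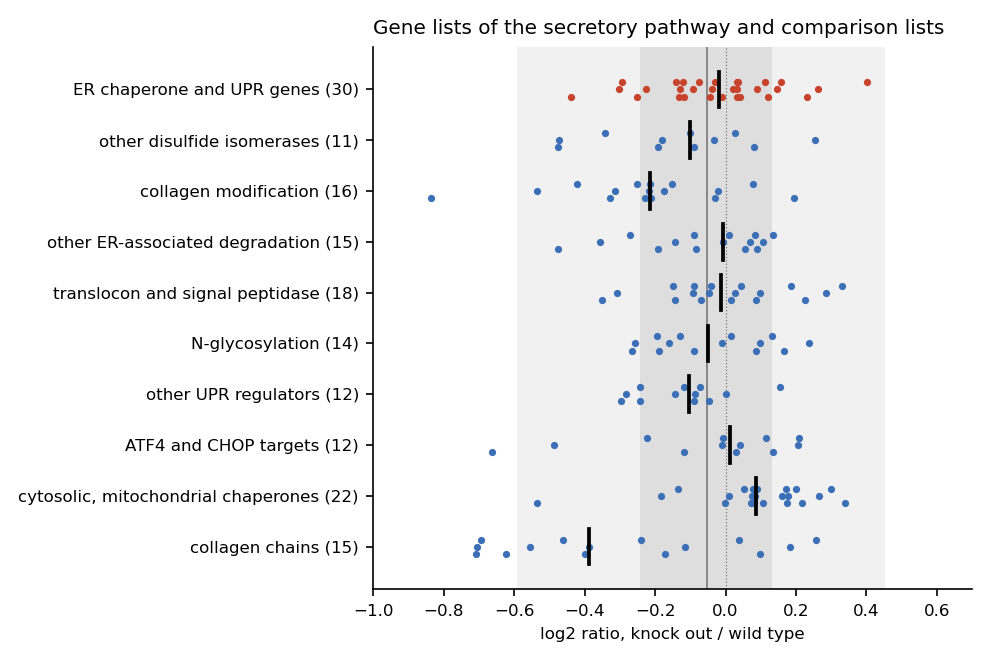
Log2 ratio of knock out to wild type for the genes of each list that reached 500, with the number of genes in brackets. Black bars are the medians, red points the members, blue points the genes of the other lists, the dark band holds the middle 50% and the light band the middle 90% of all genes, and the solid line is the median of all genes at -0.05. The median of the members is -0.02, the collagen chains have the lowest median at -0.39, and the cytosolic and mitochondrial chaperones the highest at 0.09.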

How the data were processed

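Total RNA of wild type and Ebp1 knock out MEFs was measured on 1 array per genotype. The deposited values are 1 linear signal intensity per probe set and array, made by the authors with MAS5, with the mean intensity of each array brought to a common target. The identifiers are those of a mouse array. Probe sets with 1 annotated symbol were kept (34945 of 45037 without controls), 1 per gene, and symbols were matched to RefSeq. The log2 ratio of knock out to wild type was computed for genes with at least 500 on 1 array, and signals under 100 were low. No test was run. Since there is 1 array per group, the number of arrays limits the precision. The members and gene lists were chosen with earlier results of these data known. Named are all members, Pa2g4, of each list the genes over 2-fold and the 2 brightest others, and others where said. The alternatives were other scalings, minimum signals, a fold of 1.5, signals raised to 100, 50 added to each signal and other choices of probe sets, with loess at a fraction of 0.3. A search for the ERSE with 1 letter changed was added later. A planned look at C-terminal ER retention signals was not run. Steps were tested on simulated data. The software was pandas 2.3.3 and numpy 2.4.6 in Python 3.11.15, statsmodels 0.14.6 for loess and matplotlib 3.10.9 for figures.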

Additional observations from a re-analysis of the deposited data

How the results depend on the processing

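No paired analysis was possible because each genotype has 1 array, and for the same reason no replicate could be left out. The counts of members over 2-fold were 0 higher and 0 lower under every alternative scaling, minimum and choice of probe sets, and at a fold of 1.5 on the deposited scale. A fold of 1.5 under each other setting was added after the data were seen. It gave 5 members lower with spike-in scaling, where 30.7% of all genes were. With a minimum of 100 or none it gave 1 lower (Derl3), against 7.3% and 12% of all genes. Without the suffixes _x_at and _s_at it gave 1 higher (Canx), against 3.41% of all genes. All other counts were 0 in either direction. None of these counts exceeds the share of all genes, and they are not a result particular to the members. The median log2 ratio of the members ran from -0.41 with spike-in scaling to 0.07 with the mean over probe sets reaching 100, over 11 alternatives. Of 280 values of single members under an alternative, 42 changed sign, 15 of them with spike-in scaling, and the largest ratio that did so had a size of 0.30. Moves of over 1.5-fold were seen for 2 values, Sel1l to 0.32 with the mean over probe sets and Canx to 0.71 without those suffixes. The cause was not tested. Members under 500, such as the sensors Ern1 and Atf6, were limited by their low signal.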
